A study of Mus musculus with 3 samples.

Results

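The intestine of mouse pups with experimental necrotizing enterocolitis (NEC) that were also given PCI34051 was compared with the intestine of pups put through the same model without it. The comparison covers 2 of the 3 libraries of the series, 1 per group, and all 14410 genes of a table of 21983 that reached 1 CPM in either library. The dam-fed control library served to place each gene, so that genes lying at the control level with PCI34051 were set apart from those lying beyond it and from those lying at the NEC level. All pups were wild type (labelled WT) and their intestine was taken at 96 h. Control pups stayed with the dam, received PBS and had neither hypoxia nor cold. NEC pups received PBS and 40 µl of 33% Esbilac formula every 4 h, with hypoxia in 99.9% nitrogen for 100 s and then 10 min at 4 °C at intervals of 12 h. PCI34051+NEC pups went through the same feeding, hypoxia and cold and took PCI34051 by mouth, 10 mg/kg daily over 5 days from the day before, in place of PBS. PCI34051 without the model was not among the groups. How many pups went into a library is not stated in the labels, nor is which stretch of intestine or which sex was taken.

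NEC is an inflammatory and necrotic disease of the newborn bowel, and formula feeding with hypoxia and cold is a common way to model it in rodents. PCI34051 is a hydroxamate that inhibits HDAC8, a zinc-dependent deacetylase of class I whose best known substrate is the cohesin subunit SMC3. The suckling intestine is lined by enterocytes that take up milk proteins whole by endocytosis and break them down in large lysosomes, absorb milk fat as chylomicrons, digest lactose and make citrulline. Beneath this epithelium lie connective tissue, immune cells, 2 coats of smooth muscle and the enteric nervous system.

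With 1 library a side there is no replicate error, no p-value is given, and every statement describes these libraries and not the treatment. Levels are TMM-scaled CPM, that is, a gene's reads relative to the library's total, with the 3 libraries scaled together. A log2 fold compares CPM with 1 added, which understates differences of low genes. Ratios called fold are plain ratios of CPM, with 95% intervals in brackets that cover counting error only. Wherever 3 values follow each other they stand in the order control, NEC, PCI34051+NEC. The libraries held 15076413, 10650638 and 16497580 counts in all. The NEC library stood apart in ways that touch every value below. Mitochondrially encoded genes took 32.4% of its counts, as opposed to 4.88% (control) and 3.73% (PCI34051+NEC). The Y-linked genes Ddx3y, Eif2s3y, Kdm5d and Uty summed to 0.457 CPM there, but to 165 CPM in control and to 183 CPM with PCI34051. Fewer cells of a type and less RNA per cell cannot be told apart in these bulk libraries.

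Across all genes, the PCI34051+NEC library was at least 2-fold above the NEC library in 3597 genes (25% of 14410) and at least 2-fold below it in 3695 (25.6%), so 50.6% were apart. The counts given below for gene lists are to be read beside these shares, and several lie near them. The whole counting interval lay beyond 2-fold for 2994 of the higher and 3185 of the lower genes. At least 4-fold differences numbered 858 upward and 1133 downward, and at least 8-fold ones 51 and 211. The larger differences were thus more often downward. Near the threshold, 2092 genes differed by between 1.8-fold and 2.2-fold, and small shifts in scaling move these across it.

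Each of the 14718 genes with at least 1 CPM in any of the 3 libraries was then placed by its position against both other libraries. In 6894 of them NEC and control differed at least 2-fold. A gene of this kind was called returned where the PCI34051+NEC library was at least 2-fold from NEC toward the control and within 2-fold of the control. It was called passed where the level lay at least 2-fold beyond the control on the far side, and part of the way where it was at least 2-fold from both and between them. It was called did not move where it was within 2-fold of NEC and at least 2-fold from control, in between where it was within 2-fold of both, and further where it was at least 2-fold from NEC on the side away from control. Genes not apart between NEC and control were split into those that differed in the PCI34051+NEC library from both others and those that differed from NEC alone, and the rest, not 2-fold from NEC in either comparison, were called not apart. The words describe positions of 3 separate libraries, since no pup was followed over time. A gene under 1 CPM in both NEC and PCI34051+NEC could not be called apart between them, because 1 CPM was added before the ratio. Both differences hold the NEC library, so whatever is particular to that library counts as a return.

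Returned was by far the most common class, with 4985 genes (33.9% of 14718), or 72.3% of the 6894. Of these, 2245 were lower and 2740 higher in NEC than in control. The PCI34051+NEC level was within 1.5-fold of the control for 4169 of the 4985, and its counting interval against control included equality for 2392. The passed class held 132 genes (0.897%), 73 of them low in NEC. A further 214 genes (1.45%) lay part of the way, 1008 (6.85%) were in between and 44 (0.299%) lay further from control than NEC did. The did not move class held 511 genes (3.47%), 334 of them low in NEC, and only 270 of the 511 reached 10 CPM in any library. Genes with no NEC difference that differed with PCI34051 from both libraries numbered 575 (3.91%), 396 above and 179 below NEC. Another 1342 (9.12%) differed from NEC alone. Against the control, 13.1% of 13652 genes were at least 2-fold apart in the PCI34051+NEC library, and between NEC and control 47.1% of 14627 were.

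**Figure D1:**
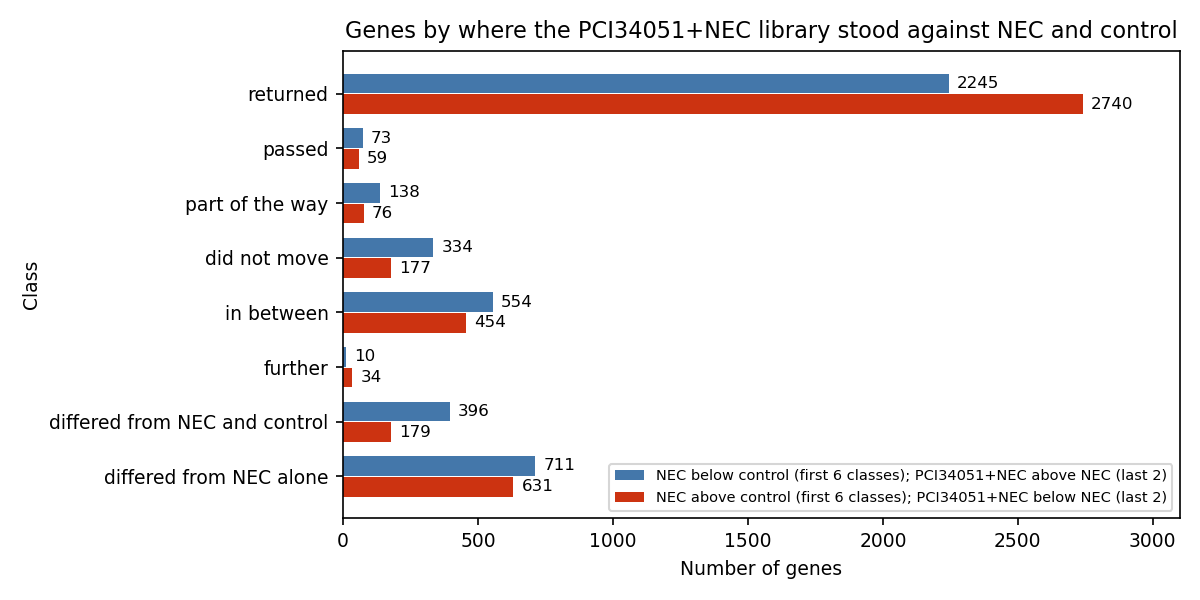
Number of genes (horizontal axis) in each class (vertical axis), split by direction as the legend gives it. The 2245 and 2740 returned genes exceed every other class, and the passed and further classes hold at most 73 genes in either direction.

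Lysosomal genes were higher with PCI34051 without exception among those measured. All 22 members were at least 2-fold above NEC, where 25% of all genes were, with log2 folds of 1.29 to 3.03 and a median of 2.49 against 0.01 for all genes. Of them 18 returned, 3 lay part of the way and 1 passed. Their summed level was 35964, 5292 and 28493 CPM. Lamp1 encodes a major glycoprotein of the lysosomal membrane (ENSMUSG00000031447, mm10 chromosome 8, 13159161 to 13175338, plus strand). It was at 1855, 225 and 1797 CPM, 7.98-fold higher than NEC (7.66 to 8.32) and 1.03-fold lower than control (1.02 to 1.05). Glb1, the lysosomal beta-galactosidase, was at 1326, 179 and 1473 CPM in the same order, 8.23-fold above NEC (7.86 to 8.62). Both genes sat low in the NEC library alone. The protease genes Ctsb and Ctsl and the hexosaminidase gene Hexa were the members part of the way. Ctsl was at 3848, 177 and 1447 CPM, 8.19-fold above NEC (7.81 to 8.58) yet 2.66-fold below control (2.62 to 2.70). Lipa, the acid lipase that frees cholesterol and fatty acids in lysosomes, passed, at 135, 46.4 and 321 CPM.

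Genes of the suckling-type enterocyte, a list that shares Ctsl, Lamp2, Glb1, Scarb2 and Lipa with the lysosomal one, showed the same order. Of 15 measured members, 14 were at least 2-fold above NEC and none 2-fold below, with a median log2 fold of 2.21. Against the control 8 returned, 4 lay part of the way and 2 passed. Fcgrt, the neonatal Fc receptor that carries maternal IgG across the epithelium, was at 2006, 238 and 1489 CPM. Dab2, an adaptor of endocytosis, was at 1132, 180 and 884 CPM. Prdm1, the repressor that holds the suckling program before weaning, lay part of the way, at 127, 13.6 and 58.0 CPM.

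Junction genes were also mostly higher, with 16 of 21 at least 2-fold above NEC, 1 below and a median of 1.94. In the classes, 12 returned and none passed. Epcam, an epithelial adhesion molecule that stabilises claudins (ENSMUSG00000045394, mm10 chromosome 17, 87635979 to 87651129, plus strand), was at 2731, 404 and 2797 CPM. The PCI34051+NEC level was 6.92-fold above NEC (6.70 to 7.13) and 1.02-fold above control (1.01 to 1.04). The claudin gene Cldn8, whose product seals the paracellular path, was at 126, 9.68 and 120 CPM, 12.4-fold above NEC (10.2 to 15.2) and at the control level within counting error (1.05-fold, 0.984 to 1.12). Ocln, which encodes the tight junction protein occludin, was at 161, 29.2 and 213 CPM. These 3 genes lay low in NEC alone. Not every junction gene did so. Cldn3 was at 57.5, 155 and 149 CPM and stood at the NEC level, and Tjp3, a scaffold of tight junctions, was highest in NEC, at 205, 385 and 161 CPM.

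Measured genes of citrulline and arginine synthesis lay within 2-fold of the control level on the log2 scale, some of them well below it. In this urea cycle list 7 of 10 measured genes exceeded NEC at least 2-fold and 1, the arginase gene Arg1, was below, with a median of 1.68. By class 7 returned, Arg1 included, and none passed or lay at the NEC level. Cps1, the carbamoyl phosphate synthetase of mitochondria, was at 715, 118 and 728 CPM, a difference of 6.16-fold from NEC (5.82 to 6.53) and of 1.02-fold from control (0.991 to 1.04). The ornithine carrier gene Slc25a15 was at 207, 38.0 and 182 CPM. Otc (40.4, 17.5 and 26.8 CPM) and Asl (464, 170 and 299 CPM), the cycle's ornithine transcarbamylase and argininosuccinate lyase, were in between. The argininosuccinate synthase gene Ass1 was at 241, 35.4 and 121 CPM. It was called returned only narrowly, with a log2 fold of -0.996 over control.

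Of 15 measured mineral absorption genes, 9 were at least 2-fold above and 2 below NEC, where 25% and 25.6% of all genes were. Only 5 returned, a share near the 33.9% of all genes. Ltf, which is outside that list and encodes the iron-binding lactoferrin, had 622, 5 and 420 counts, a ratio of 60.4 to NEC (25.7 to 187). Slc40a1, the iron exporter ferroportin, was at 997, 53.1 and 578 CPM, 10.9-fold above NEC (10.0 to 11.9). Both genes were lowest in the NEC library. The proton-coupled folate and heme carrier gene Slc46a1 was at 94.6, 10.4 and 71.2 CPM, and the zinc importer gene Slc39a4 at 266, 44.7 and 321 CPM. The apical iron importer gene Slc11a2 lay only part of the way, at 968, 44.5 and 193 CPM, and the ferroxidase gene Heph passed, at 234, 90.5 and 524 CPM. The magnesium channel gene Trpm6 was opposite, with 0, 432 and 21 counts. Outside the list, Ces2e, a carboxylesterase, was at 538, 42.6 and 511 CPM, and Enpp7, the brush border sphingomyelinase that digests milk sphingomyelin, was at 59.0, 4.02 and 56.2 CPM.

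Genes of the muscle wall, the enteric nervous system and the connective tissue were high in the NEC library and at the control level with PCI34051. In the smooth muscle list 12 of 14 genes lay at least 2-fold below NEC, where 25.6% of all genes were, and none was above. The median log2 fold was -2.20, and 10 of the 14 returned. Myh11, the smooth muscle myosin heavy chain (ENSMUSG00000018830, mm10 chromosome 16, 14194535 to 14291372, minus strand), was at 268, 4215 and 286 CPM. It was 14.7-fold below NEC (14.3 to 15.2) and 1.07-fold above control (1.02 to 1.11). Smtn, a cytoskeletal protein of contractile smooth muscle, was at 41.6, 568 and 48.4 CPM, and Des, the muscle intermediate filament desmin, at 156, 1227 and 128 CPM. The control and PCI34051+NEC libraries lay close together for all 3 genes. The summed level of the list was 2170, 14078 and 1924 CPM in the same order.

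Of 15 enteric neuron and glia genes, 12 were at least 2-fold below NEC and 2 above, with a median of -2.31, and 13 returned. Prph, an intermediate filament of peripheral neurons, was at 44.7, 396 and 40.3 CPM, 9.82-fold below NEC (9.03 to 10.7). Sox10, a transcription factor of enteric glia, was at 3.90, 24.8 and 4.14 CPM. Both members above NEC, Ret (198, 47.9 and 147 CPM) and Entpd2 (135, 41.5 and 161 CPM), also returned. Of 19 voltage-gated and related ion channel genes, 16 were at least 2-fold below NEC and none above, with a median of -2.07, and 13 returned. Cacna1g, a T-type calcium channel, was at 8.68, 150 and 5.32 CPM, 28.3-fold below NEC (22.6 to 35.8), with 1646 counts in NEC and 81 with PCI34051. Of 12 fibroblast and matrix genes, 9 were at least 2-fold below NEC and none above, with a median of -1.91, and 8 returned. Col1a1, a chain of type I collagen, was at 142, 666 and 116 CPM. Endothelial genes did not share this pattern to that degree: 4 of 13 were at least 2-fold below NEC, a share near the 25.6% of all genes. In that list 1 gene was above, and the median was -0.28.

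Markers of less common epithelial cells differed by cell type. Of 10 Paneth cell genes, 8 were at least 2-fold below NEC and none above. Their median was -2.12, and -1.94 once counts of 0 were raised to the floor of 3. Lyz1, the Paneth cell lysozyme, had 8, 184 and 3 counts. Alpha-defensins are so alike in sequence that reads may be shared among the members of that family listed here. All 5 measured tuft cell genes were at least 2-fold below NEC. Of 15 enteroendocrine genes 11 were within 2-fold of NEC, 3 below and 1 above, with a median of -0.37. The 1 above was the neurotensin gene Nts, at 154, 13.4 and 88.2 CPM. Goblet cell genes were split, with 2 of 8 above and 4 below NEC and a summed level of 943, 327 and 449 CPM. Fcgbp, a mucus protein, lay part of the way, at 653, 79.0 and 255 CPM, and Spdef, a transcription factor of goblet cells, was high in NEC, at 5.35, 25.7 and 6.504 CPM. All 12 measured mitochondrially encoded genes were at least 2-fold below NEC and returned, with a median of -2.94. The cytochrome oxidase subunit gene mt-Co1 was at 21426, 155223 and 19928 CPM. Among 16 nuclear-encoded respiratory chain genes 8 stood at least 2-fold above NEC and none below, with a median of 0.94. Whether the pieces of tissue sampled held unequal shares of wall and epithelium was not tested, and it cannot be told apart from the treatment in 1 library a side.

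**Figure D2:**
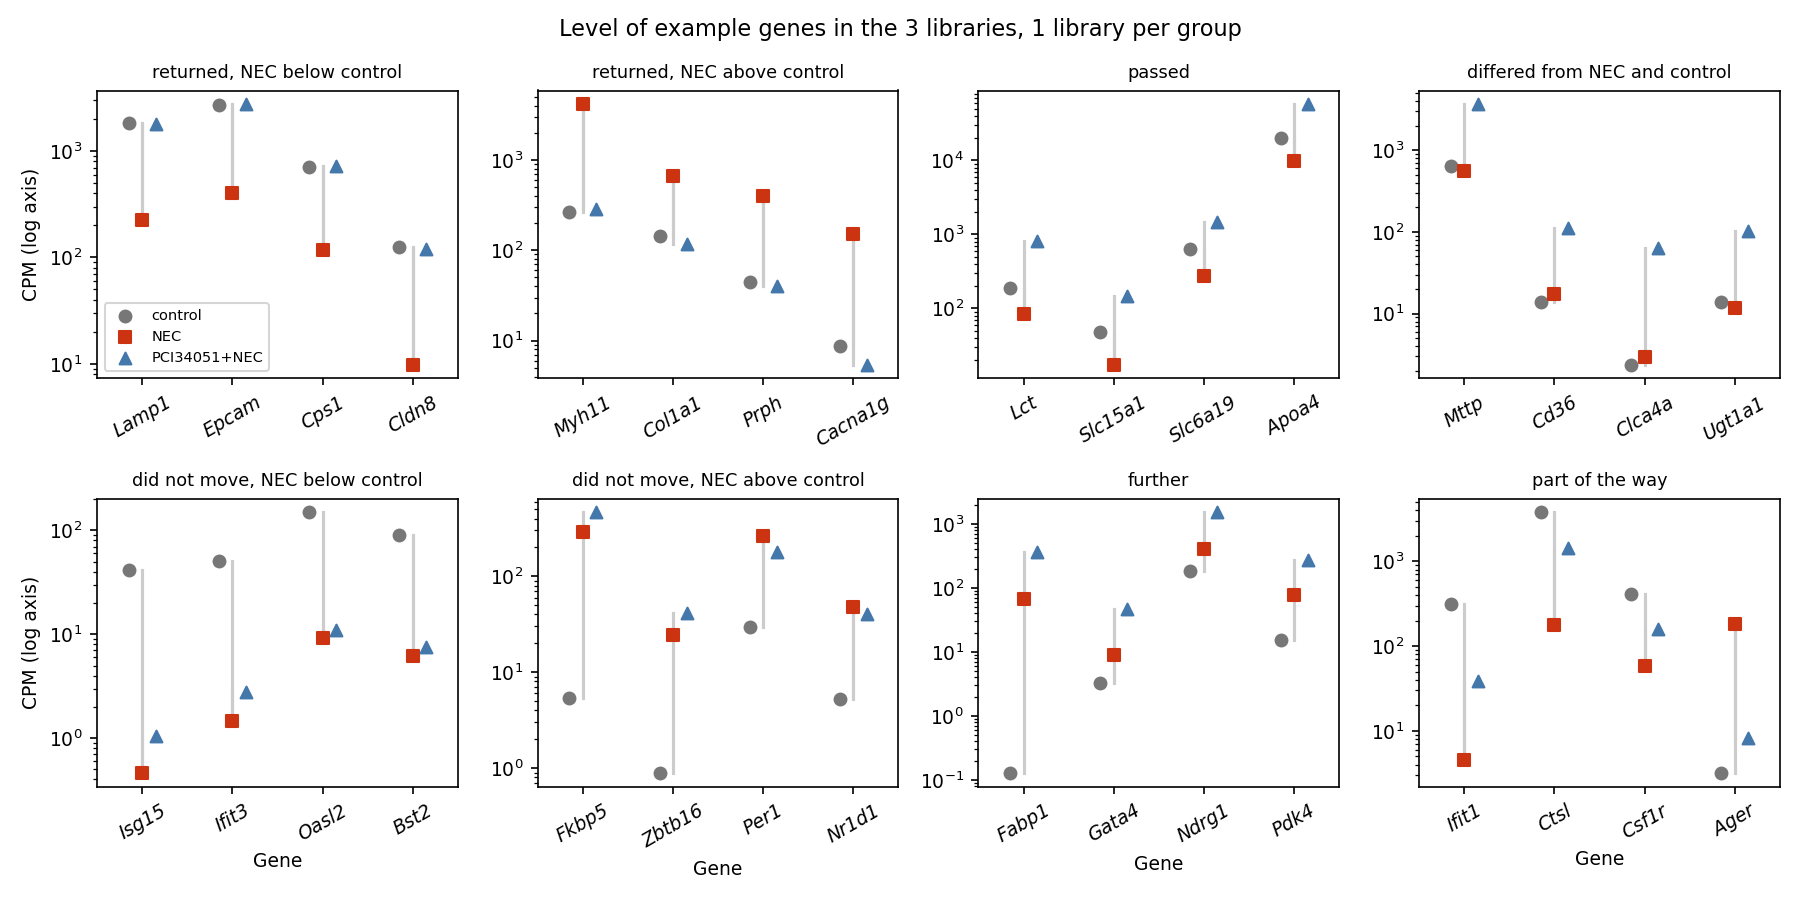
Level in CPM (vertical axis, log scale) of 32 example genes, 4 in each panel, in the control (grey circles), NEC (red squares) and PCI34051+NEC (blue triangles) libraries, 1 library each. In the panels of returned genes the blue and grey points lie together, in the panels of genes that did not move the blue and red points do, and in the further panel the blue points lie past the red ones.

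The largest downward differences included that of Alb. The gene, which encodes serum albumin (ENSMUSG00000029368, mm10 chromosome 5, 90460897 to 90476602, plus strand), had 148, 1099 and 6 counts. It was 255-fold below NEC (117 to 695) and 23.6-fold below control (10.6 to 65.4), and so it passed. Of 11 measured liver-type genes 6 were at least 2-fold below NEC, but 3 were above, among them Afp, the fetal serum protein, at 786, 27.6 and 321 CPM. The tissue factor gene F3 was at 6.67, 105 and 4.27 CPM, and the complement gene C4b at 8.56, 131 and 4.93 CPM. Itga5, the fibronectin receptor subunit, was at 29.2, 603 and 32.4 CPM. Ager, the receptor for advanced glycation end products, lay part of the way, at 3.15, 181 and 8.28 CPM, 21.9-fold below NEC (18.2 to 26.4) and 2.63-fold above control (1.88 to 3.73). Of 6 measured fat cell and mesentery genes 5 were at least 2-fold below NEC, where 25.6% of all genes were, and 1 was above. The summed level of the list was instead highest with PCI34051, at 165, 218 and 369 CPM. Adipoq and Plin1, markers of mature fat cells, were at 1.28 and 1.83 CPM in NEC and had no counts elsewhere. They met the 1 CPM minimum through NEC alone, and without counts elsewhere a 2-fold call was then certain. Fabp4, a fatty acid carrier of fat cells and macrophages, was at 17.4, 110 and 48.8 CPM. The lipid droplet gene Cidec went the other way, lowest in NEC and highest with PCI34051, at 144, 84.3 and 318 CPM.

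Several genes of digestion and absorption at the brush border were among the 73 that were low in NEC and passed the control level. Lct, the lactase that splits milk sugar (ENSMUSG00000026354, mm10 chromosome 1, 128284756 to 128328318, minus strand), was at 192, 84.6 and 813 CPM. It was 9.61-fold above NEC (8.99 to 10.3) and 4.24-fold above control (4.08 to 4.42), the largest step beyond control among the passed genes at 10 CPM or more that were low in NEC. The peptide transporter gene Slc15a1 was at 47.3, 17.0 and 148 CPM. Slc6a19, a neutral amino acid transporter gene, was at 644, 270 and 1480 CPM. Enpep, an aminopeptidase, was at 531, 203 and 1273 CPM. The PCI34051+NEC library was thus the highest of the 3 for these 4 genes. Of 18 nutrient transporter genes 15 were at least 2-fold above NEC and none below, with a median of 1.97, and 9 returned while 3 passed. Of 13 brush border peptidase and disaccharidase genes 9 were above and 1 below, with a median of 1.52. That 1 gene was the sucrase-isomaltase gene Sis, which normally comes on at weaning, at 3.84, 37.3 and 16.6 CPM.

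Fat absorption genes went beyond the control more often than they stopped at it. Of 20 genes, 18 were at least 2-fold above NEC and none below, with a median of 2.20 over NEC and of 0.92 over control. Only 8 returned, while 3 passed, 1 lay further, and 6 were not apart between NEC and control but stood above both with PCI34051. Mttp loads lipid onto apolipoprotein B in the endoplasmic reticulum (ENSMUSG00000028158, mm10 chromosome 3, 138089854 to 138144968, minus strand). It was at 631, 559 and 3713 CPM, 6.64-fold above NEC (6.47 to 6.82) and 5.88-fold above control (5.76 to 6.01). The fatty acid translocase gene Cd36 was at 13.8, 17.3 and 112 CPM. The gene of the intestinal-type fatty acid carrier, Fabp2, was at 314, 616 and 2571 CPM. For these 3 genes the control and NEC libraries differed by less than 2-fold, and the PCI34051+NEC library was the highest. Fabp2 came close to that limit, with a log2 fold of 0.97 for NEC over control. Apoa4, a chylomicron apolipoprotein made on fat feeding, passed, at 20142, 9794 and 58772 CPM, and so did Apob, the structural protein of chylomicrons, at 2614, 920 and 5615 CPM. By contrast the acyltransferase gene Mogat2, which rebuilds triglyceride from monoacylglycerol, returned, at 319, 56.4 and 315 CPM.

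Fatty acid oxidation genes were higher than NEC as well, with 17 of 22 at least 2-fold above, 1 below and a median of 1.67. Here 12 returned and none passed. Cpt1a, which admits fatty acids to mitochondria, was at 303, 142 and 515 CPM, and Hadh, a dehydrogenase of the same pathway, at 624, 150 and 765 CPM. Ppara, the nuclear receptor that drives these genes, was at 5.73, 11.1 and 46.3 CPM and differed from both other libraries. Of 24 measured xenobiotic metabolism genes 10 were above and 4 below NEC, with a median of 0.81. Ugt1a1, which conjugates bilirubin, was at 13.8, 11.6 and 102 CPM, 8.79-fold above NEC (7.33 to 10.6). It shares exons with other Ugt1a genes, so its reads cannot be assigned to it with certainty.

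Other genes that differed by less than 2-fold between NEC and control stood apart from both libraries. Clca4a, a regulator of calcium-activated chloride conductance, had 37, 32 and 953 counts, 21.4-fold above NEC (15.1 to 31.5) and 26.9-fold above control (19.4 to 38.4). Its close relative Clca4b was at 3321, 839 and 6749 CPM and passed, and reads may be split between them. Rrm2, a subunit of ribonucleotide reductase, was at 6.98, 10.1 and 52.1 CPM. Of 19 replication and mitosis genes 3, namely Rrm2, Mcm6 and Pcna, were at least 2-fold above NEC and 7 below, with a median of -0.36. Downward, Ldlrad4, an inhibitor of TGF-beta signalling, was at 10.6, 10.96 and 0.985 CPM, and Mdk, the growth factor midkine, at 24.5, 40.8 and 4.66 CPM. Tnc, the matrix glycoprotein tenascin C, was at 43.2, 75.9 and 12.7 CPM.

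A small class lay further from control than NEC did, 34 genes upward and 10 downward. Fabp1, the liver-type fatty acid carrier of proximal enterocytes (ENSMUSG00000054422, mm10 chromosome 6, 71199827 to 71205023, plus strand), had 2, 743 and 5537 counts. That was 0.126, 67.9 and 364 CPM, 5.36-fold above NEC (4.96 to 5.79) and a ratio of 2890 to control (800 to 23874). Gata4, the transcription factor of the duodenum and jejunum, was at 3.21, 8.95 and 46.4 CPM, 5.19-fold above NEC (4.20 to 6.48). Both are markers of the proximal small intestine. Of the 7 measured genes of that list 5 were at least 2-fold above NEC, where 25% of all genes were, and 1 was below. Their median was 2.04 over NEC and 0.49 over control, and the list summed to 660, 536 and 2098 CPM. Against control the members fell in different classes. Hoxb4, the 1 below NEC, passed downward, at 9.44, 52.9 and 3.74 CPM. Slc2a2 returned from below, at 53.5, 7.03 and 54.9 CPM, and Pdx1 had no counts in any library. The ileum list was much alike: of 8 measured genes 5 were at least 2-fold above NEC and 1 was below. Its median was 1.26 over NEC and 0.52 over control, and it summed to 4660, 886 and 3248 CPM. The ileal bile acid importer gene Slc10a2 was further as well, at 0.252, 1.83 and 6.18 CPM, and the ileal bile acid carrier gene Fabp6 was at 23.8, 38.9 and 30.5 CPM. The distal markers Hoxd13, Hoxb13, Hoxa13 and Car1 had no counts in any library. The respiratory chain genes Atp5a1 and Uqcrc1, which nearly every cell uses, also had none, so a 0 in all 3 libraries may be a symbol that was given no reads. The part that the stretch of bowel sampled has in these values was not tested.

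None of the glucocorticoid-induced genes that were apart in NEC returned. Of 15 members 4 did not move, 4 lay further, 4 differed from both and 3 were not apart. Only those that did not move or lay further were apart between NEC and control, so only they could have returned. Among all genes apart in NEC 72.3% returned. Against NEC 8 were at least 2-fold higher and none lower, with a median of 1.08, and against control the median was 2.56. Fkbp5, which tunes hormone binding by the glucocorticoid receptor (ENSMUSG00000024222, mm10 chromosome 17, 28399094 to 28517527, minus strand), was at 5.35, 292 and 471 CPM. It differed from NEC by 1.61-fold (1.55 to 1.68) and from control by 88.1-fold (71.1 to 110). Zbtb16, a zinc finger repressor induced by the same hormone, was at 0.881, 24.3 and 41.3 CPM. Both were therefore high in each model library and low in the control. Pdk4, which holds back pyruvate oxidation, lay further, at 15.3, 78.2 and 276 CPM, as did the leucine zipper gene Tsc22d3, at 57.6, 204 and 641 CPM. The metallothionein genes Mt1 (478, 1672 and 3978 CPM) and Mt2 (111, 846 and 1787 CPM), which bind zinc and copper, were further too. Sgk1, a kinase that controls ion transport, was at 140, 269 and 1365 CPM, and Klf9 at 18.4, 18.4 and 81.1 CPM. Klf9 stood apart with PCI34051 alone, whereas Sgk1 was also higher in NEC than in control, just short of 2-fold (log2 fold 0.94). Ndrg1, a hypoxia and stress gene outside this list, was at 181, 408 and 1548 CPM, 3.79-fold above NEC (3.67 to 3.91).

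Of 17 circadian clock genes, 4 were at least 2-fold above NEC, a share near the 25% of all genes, and 1 was below, against 25.6%. The genes Per1, Nr1d1, Nr1d2 and Ciart did not move. Per1, a repressor of the clock that glucocorticoids also induce, was at 29.6, 260 and 180 CPM, and Nr1d1, the nuclear receptor REV-ERB alpha, at 5.22, 47.9 and 40.7 CPM. Nr1d2 was at 12.7, 54.4 and 54.7 CPM, a ratio of 1.00 to NEC (0.903 to 1.12). Nr1d1 overlaps Thra on the opposite strand. The hour at which each intestine was taken is not given in the labels.

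Interferon-response genes lay low in both model libraries. All 36 members reached 1 CPM in at least 1 library, and 19 of them did not move, against 3.47% of all genes, while 7 lay part of the way and only 3 returned. Only the 30 measured in the pair could be called moved, since the rest were under 1 CPM in both model libraries. Of these 30, 9 were at least 2-fold above NEC, a share near the 25% of all genes, and 3 below, against 25.6%. The median was 0.51. The summed level of all 36 members was 2236, 385 and 537 CPM. These genes are switched on by the factor ISGF3, which binds a short element in their promoters, and 4 of the promoters are shown so that the element can be seen beside the values of genes of both classes. Each line gives the 150 bases that end just before the RefSeq start site (GRCm38.p6), 5′ to 3′ on the gene's strand, with matches to GAAANNGAAA on either strand in capitals, joined where they overlap.

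Isg15, chr4:156200819-156200968, minus strand: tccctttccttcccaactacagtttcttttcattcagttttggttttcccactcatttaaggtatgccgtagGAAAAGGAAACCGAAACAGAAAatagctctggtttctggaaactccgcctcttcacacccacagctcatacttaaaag
Bst2, chr8:71537473-71537622, minus strand: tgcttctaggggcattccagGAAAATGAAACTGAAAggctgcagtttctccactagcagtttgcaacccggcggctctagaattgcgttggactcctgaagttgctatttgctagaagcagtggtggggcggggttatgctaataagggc
Ifit1, chr19:34640739-34640888, plus strand: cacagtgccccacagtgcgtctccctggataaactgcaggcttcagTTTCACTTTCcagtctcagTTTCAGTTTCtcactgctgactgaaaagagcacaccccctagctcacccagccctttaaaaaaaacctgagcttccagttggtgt
Rsad2, chr12:26456453-26456602, minus strand: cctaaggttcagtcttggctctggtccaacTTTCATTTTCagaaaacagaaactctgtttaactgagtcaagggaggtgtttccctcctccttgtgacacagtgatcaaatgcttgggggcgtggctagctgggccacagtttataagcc

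Isg15, a ubiquitin-like modifier, and Bst2, the tether of budding virions, are genes that did not move. Isg15 had 660, 5 and 16 counts, or 41.5, 0.457 and 1.05 CPM, a ratio of 2.30 to NEC (0.806 to 8.03) and 39.5-fold below control (24.1 to 69.5). Bst2 was at 90.5, 6.21 and 7.49 CPM, a ratio of 1.21 to NEC (0.885 to 1.65). At this depth no difference from NEC was detectable for either, and both lay far below control. Ifit1, which binds foreign RNA, and Rsad2, the antiviral enzyme viperin, lay part of the way. Ifit1 was at 317, 4.57 and 38.4 CPM, 8.42-fold above NEC (6.30 to 11.5) and 8.26-fold below control (7.58 to 9.01). Rsad2 was at 25.5, 0.457 and 9.46 CPM, 20.7-fold above NEC (8.68 to 64.8). The element is present in both kinds of promoter. In windows of 300 bases (250 before and 50 after the start), at least 1 match was found for 15 of 26 interferon-response genes with a RefSeq window, and for 3.99% of all 27025 genes with one (3.44% of 32851 windows). By class it was found in 9 of 15 members that did not move, 2 of 5 part of the way and 2 of 3 that returned. A match of letters is no proof of binding. Oasl2, an oligoadenylate synthetase relative, was at 152, 9.22 and 10.9 CPM, and the master regulator gene Irf7 at 295, 43.7 and 79.3 CPM.

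Of 3 other promoter elements few matches were found in their lists. The CLEAR element TCACGTGA, the site of the lysosomal regulator TFEB, was found for 2 of 17 lysosomal genes and for 1.12% of all genes. The element ACANNNTGT of the glucocorticoid receptor was found for 2 of 14 glucocorticoid-induced genes and for 7.90% of all genes. The HNF4 element CAAAGTCCA was found for none of 15 fat absorption genes and for 0.555% of all genes.

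Antigen presentation genes fell in several classes. The class II genes lay well below control. Of 7 measured members 5 were at least 2-fold above NEC and none below, with a median of 1.47, and 1.46 once counts of 0 were raised to the floor. Of the 9 members measured in any library 4 lay part of the way, 3 did not move and 1 returned. H2-Ab1, a class II beta chain, was at 62.6, 3.01 and 12.0 CPM, 3.97-fold above NEC (2.73 to 5.94) and 5.24-fold below control (4.47 to 6.17). Cd74, the invariant chain, was at 157, 9.50 and 36.9 CPM. Of 11 class I and peptide loading genes measured in the pair 6 were at least 2-fold above NEC and 1 below, with a median of 1.25. Of the 12 measured in any library 4 returned, a share near the 33.9% of all genes, while 4 did not move and 1 lay part of the way. Among the heavy chain genes, whose reads may be shared since their sequences are alike, H2-D1 returned, at 1849, 230 and 1442 CPM, while H2-Q1 differed from NEC and control, at 6.54, 4.20 and 25.8 CPM. B2m, which encodes the light chain, returned, at 631, 93.6 and 466 CPM. The peptide transporter gene Tap1 (46.8, 6.21 and 12.2 CPM) and the immunoproteasome gene Psmb8 (29.1, 3.38 and 4.93 CPM), which interferon induces, did not move.

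Markers of immune cells differed by cell type beside these groups. Of 7 B cell genes measured in any library only 1, Cd74, reached 1 CPM in NEC or PCI34051+NEC, and it lay part of the way. The other 6 are in the did not move class, but at under 1 CPM in both libraries no move could be called. Among them Cd79b, a part of the B cell receptor, had 200, 0 and 6 counts. Of 7 T and NK cell genes 4 did not move, but only 4 of the 7 reached 1 CPM in NEC or PCI34051+NEC. The rest could not be called apart between those libraries. The summed level of the T and NK list was 23.8, 7.03 and 3.35 CPM, with Cd3d at 0 in the model libraries. Of 13 macrophage and dendritic cell genes 3 were at least 2-fold above and 2 below NEC, against 25% and 25.6% of all genes. Their median was -0.67. Csf1r, the growth factor receptor of macrophages, lay part of the way, at 406, 58.8 and 160 CPM. The complement gene C1qa (24.5, 45.3 and 20.8 CPM) and the mannose receptor gene Mrc1 (7.55, 20.6 and 12.1 CPM) were highest in NEC. Coro1a, an actin regulator of leukocytes, lay further downward, at 52.2, 24.3 and 6.31 CPM, 3.85-fold below NEC (3.04 to 4.92), although it shares an exon with Bola2. The part of these cells in the interferon and class II values was not tested. Classic inflammatory transcripts were scarce in all libraries: of 11 measured cytokine and chemokine genes 1 was at least 2-fold above and 3 below NEC, with a median of 0.05. Tlr4, the endotoxin receptor, returned at low counts, at 1.38, 7.67 and 1.71 CPM. Of the 17 measured genes of its pathway 5 were above and 3 below NEC, where 25% and 25.6% of all genes were.

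**Figure D3:**
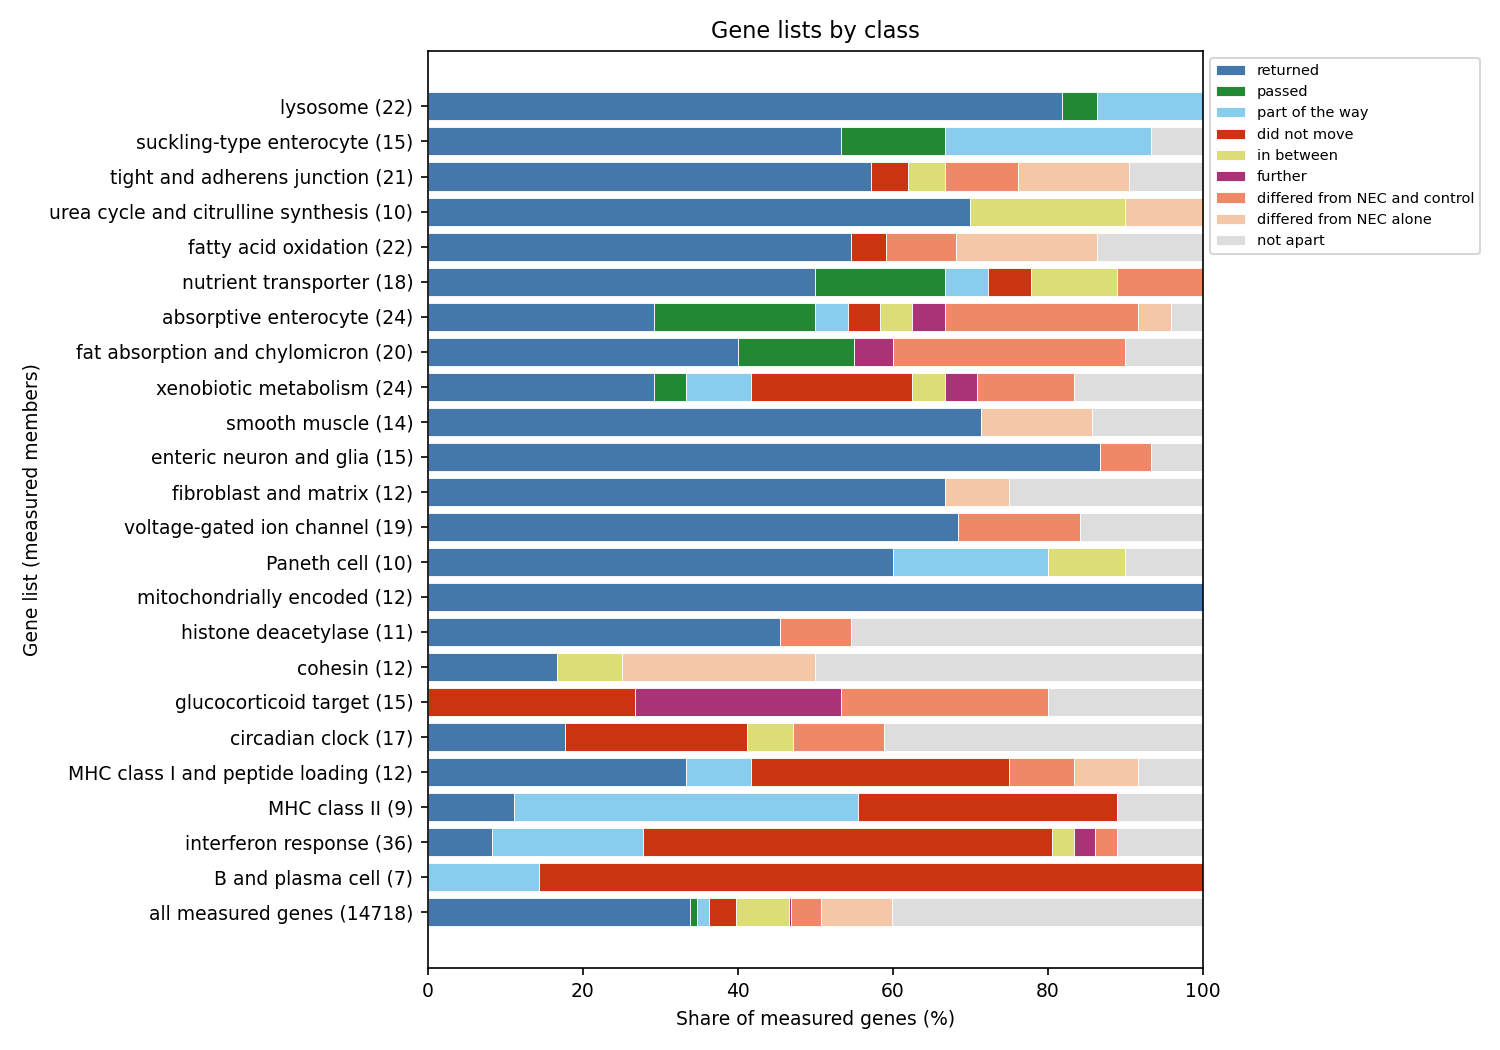
Share of measured members (horizontal axis, %) of each gene list (vertical axis, number of members in brackets) in each class, with all 14718 measured genes in the last bar. Lysosomal and smooth muscle genes are mostly in the returned class, and no glucocorticoid target is. In the class that did not move are 19 of 36 interferon-response genes, of which only 30 reached 1 CPM in NEC or PCI34051+NEC.

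**Figure D4:**
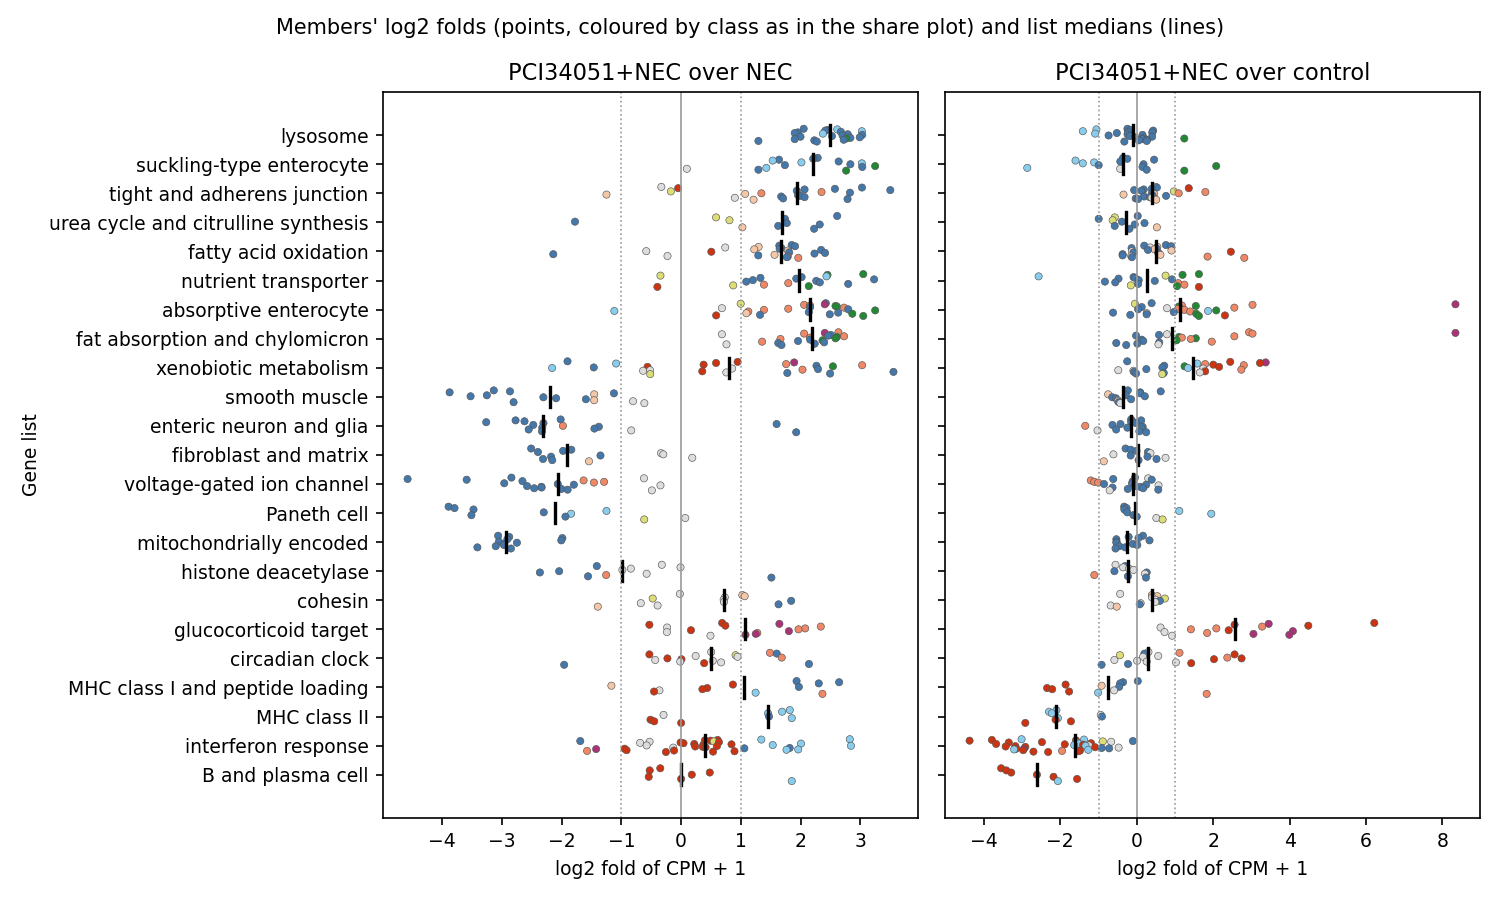
Log2 fold of CPM + 1 (horizontal axis) of each member measured in any of the 3 libraries (points) and the list median (black lines) for the same lists (vertical axis), with PCI34051+NEC over NEC on the left and over control on the right; dotted lines mark 2-fold. Lysosomal and smooth muscle lists lie far from 0 on the left and near 0 on the right, whereas interferon-response genes lie near 0 on the left and well below 0 on the right.

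Stress genes outside the glucocorticoid list were mixed. Of 18 genes of the unfolded protein and integrated stress responses 10 were at least 2-fold above NEC, where 25% of all genes were, and none below. The median was 1.07, and 6 returned, a share near the 33.9% of all genes. Hspa5, the main chaperone of the endoplasmic reticulum, was at 343, 58.5 and 277 CPM, while the stress factor genes Atf4 (178, 346 and 228 CPM) and Ddit3 (60.7, 57.5 and 53.5 CPM) were not apart. Of 17 hypoxia-inducible genes 8 were above and 2 below NEC, with a median of 0.87. Among them Ldha, lactate dehydrogenase, was at 859, 190 and 803 CPM, and Car9, a carbonic anhydrase, was opposite, at 4.84, 14.98 and 4.60 CPM. Of 17 p53 target and cell death genes 9 were above and 3 below. Of 16 metallothionein and antioxidant genes 10 were above and none below, and the catalase gene Cat returned, at 673, 126 and 627 CPM.

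The target of the inhibitor itself was expressed at a low level. Hdac8 (ENSMUSG00000067567, mm10 chromosome X, 102284639 to 102505359, minus strand) had 103, 131 and 117 counts. That was 6.48, 12.0 and 7.69 CPM, 1.56-fold below NEC (1.20 to 2.01), whereas 50.6% of all genes were at least 2-fold apart. PCI34051 acts on the enzyme, so the transcript does not check the treatment. Of 11 histone deacetylase genes 5 were at least 2-fold below NEC and 1 above, with a median of -0.98, and 5 returned. Hdac7, a class IIa member, was at 19.2, 124 and 23.2 CPM, and Hdac11, the lone class IV member, was opposite, at 21.02, 8.13 and 25.0 CPM. Of 12 cohesin genes 4 were above and 1 below NEC, where 25% and 25.6% of all genes were, with a median of 0.71. Smc3, which encodes the substrate of HDAC8, was at 39.1, 24.9 and 51.8 CPM, and Wapl, the factor that releases cohesin from chromatin, was at 95.4, 39.9 and 146 CPM.

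The difference between the PCI34051+NEC and NEC libraries moved with the GC content of transcripts. The median log2 fold was 0.40 in the 10% of genes with the lowest GC content (median 39.7%) and -0.72 in the 10% with the highest (median 59.8%). Between NEC and control the same groups had medians of -0.29 and 0.70, and between PCI34051+NEC and control 0.08 and -0.03, so the trend went with the NEC library. In the returned class the genes high in NEC had a median GC content of 52.7% and those low in NEC one of 48.5%. With the trend with GC content and length removed from each library, 3506 genes were at least 2-fold above and 3574 below NEC. The returned class then held 4797 genes, 4108 of them shared with the original 4985, and the did not move class 477, 383 of them shared. Per1 lost its difference from NEC (from -0.53 to 0.04 in log2 fold), and the lysosomal (2.50) and interferon-response (0.66) medians moved little, while that of smooth muscle was -1.83.

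**Figure D5:**
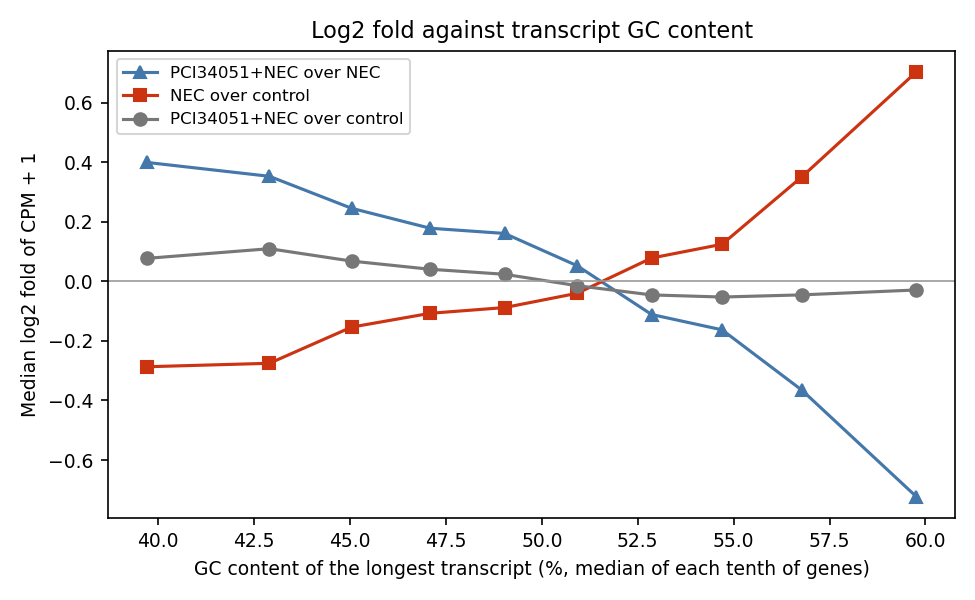
Median log2 fold of CPM + 1 (vertical axis) in each of 10 equal groups of genes ordered by GC content of the longest transcript (horizontal axis, %) for the 3 pairs of libraries. The line for PCI34051+NEC over NEC falls from 0.40 to -0.72, the line for NEC over control climbs from -0.29 to 0.70, and the line for PCI34051+NEC over control stays between -0.05 and 0.11.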

How the data were processed

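Intestine RNA of 3 groups, 1 library each, was extracted with TRIzol and sequenced as 150 bp read pairs on a NovaSeq, per the labels' protocols. The authors deposited the unnormalised counts by gene symbol in 1 table. Per the submitters' processing notes the reads were handled on mm10. Which aligner, annotation and strand setting were used is not given in the sources used here. Reads of overlapping or antisense genes and of near-identical copies may therefore be shared, as for Lamp1 with Grtp1, Glb1 with Tmppe, Mttp with Trmt10a, Irf7 with Phrf1 and Cacna1h with Tpsg1. In the table the PCI34051+NEC column's name differs in letters from that sample's description, and it was matched because no other column or sample names an inhibitor.

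Of 21983 symbols 21926 (99.7%) matched GENCODE M21, which gave identifiers, coordinates, GC content and length. TMM factors from edgeR 4.0.16 (R 4.3.3), computed over the 3 libraries, were 1.05 (control), 1.03 (NEC) and 0.923 (PCI34051+NEC). Log2 folds used a pseudocount of 1 CPM, genes needed 1 CPM in at least 1 library compared, and the threshold was 2-fold. Ratio intervals are exact conditional binomial (Clopper-Pearson) intervals at 95%. The floor for a count of 0 was 3 counts, which is 0.189 CPM (control), 0.274 CPM (NEC) and 0.197 CPM (PCI34051+NEC). Without molecular identifiers, PCR copies cannot be told from separate molecules, and intervals and floors speak of counting error only. No test across libraries was possible. Values of 2 genes are not reported here. The class assignment and the intervals were tested on simulated data.

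The comparison, the 65 gene lists, the classes and the rule for named genes were chosen with earlier results of these data known. That rule took Hdac8, the 12 largest differences each way and the 8 largest per class and direction at 10 CPM or more, up to 4 members per list at 5 CPM or more, the 15 most abundant genes apart and the genes of the printed promoters. Members of lists and classes printed beyond it, and the 4 promoter motifs, were chosen after their values were seen. Some genes stand in more than 1 list. The alternatives tried were size factors of DESeq2 1.42.0, scaling by totals, TMM leaving out mitochondrially encoded and the 50 most abundant genes, TMM from the pair alone, pseudocounts of 0.25 and 4 CPM, a minimum of 5 CPM or none, libraries thinned to 10650638 counts, thresholds of 1.5-fold and 4-fold, counting intervals beyond 2-fold, and removal of trends with GC content and length in 30 bins each. That removal for the class counts was added after the data were seen. Other software was Python 3.11.15 with scipy 1.17.1, pandas 2.3.3, numpy 2.4.6 and matplotlib 3.10.9.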

Additional observations from a re-analysis of the deposited data

How the results depend on the processing

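No paired analysis was possible because each group has 1 library, and for the same reason no library could be left out. No count, list median or named gene that was at least 2-fold apart changed direction under any alternative run. Of 122 alternative counts 96 were within 1.5 times the original. The counts that were not came from the pseudocount and the fold threshold. The 96 include the counts of the run without a minimum CPM, which could not differ. With 1 CPM added, a gene under 1 CPM in every library is never 2-fold apart. With a pseudocount of 0.25 CPM, 305 genes passed the control level, 427 lay part of the way and 84 further. With 4 CPM, 2280 genes were lower than NEC, 63 passed, 120 lay part of the way, 245 did not move, 19 lay further and 365 differed from NEC and control. At a 1.5-fold threshold 1016 genes passed, 841 lay part of the way, 993 did not move, 654 were in between, 188 lay further, 1158 differed from NEC and control and 733 from NEC alone. At 4-fold 858 genes were higher and 1133 lower, 1196 returned, 1 passed, 10 lay part of the way, 120 did not move, 604 were in between, 2 lay further, 50 differed from NEC and control and 732 from NEC alone. Scaling by total counts shifted the median log2 fold of all genes by -0.14. The share of calls that were higher was 49.3% originally, 43.0% with total counts, 56.5% with a pseudocount of 4 CPM, 54.8% with a minimum of 5 CPM and 43.1% at 4-fold. Of 496 list medians under alternatives 453 moved by less than 0.25 on the log2 scale and 43 by more, and of the log2 folds of named genes 2095 moved by less than 1 arm of their counting interval and 361 by more. Depth limits the genes under 10 CPM most, where a few counts decide the class.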

Other observations

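Complement and coagulation genes split into those high and those low in NEC, and most returned from either side. Of 17 measured in any library 13 returned, with 7 at least 2-fold above NEC and 8 below. C3, the central complement component, was at 61.9 CPM in the control, 306 CPM in the NEC and 81.6 CPM in the PCI34051+NEC library, and C1s1, a protease of the classical pathway, was at 15.7, 88.2 and 10.5 CPM. In the opposite direction lay F10, coagulation factor X, at 140, 17.0 and 149 CPM, and Cfi, the protease that inactivates C3b, at 24.3, 5.66 and 37.0 CPM. Plau, the urokinase gene, lay further, at 14.5, 5.75 and 2.23 CPM.

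Cholesterol synthesis genes were higher than NEC in 9 of 17 cases and lower in none, with a median log2 fold of 1.03, and 8 of the 17 differed by less than 2-fold in each pair of libraries. Of 13 polyamine genes 5 were above and 3 below NEC, with a median of -0.08.

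By chromosome, medians of the log2 fold over NEC lay between -0.20 and 0.26 on the autosomes and at 0.10 on chromosome X.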
